A study of Mus musculus with 6 samples.

Results

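Prostaglandin synthesis and reception were examined here through 10 genes, picked by name from the 54232 genes of the deposited count table for what their proteins do. They were Pla2g4a, which releases the substrate, the cyclooxygenases Ptgs1 and Ptgs2, the terminal synthases Ptges, Ptges2 and Ptgis, and the receptors Ptger2, Ptger3, Ptger4 and Ptgfr. The list was drawn up by gene function, with earlier results of these data already known, and all 10 genes had enough counts to be tested.

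RNA sequencing was carried out on primary mouse uterine stromal cells (mUSCs) on day 4, the day on which the mouse uterus accepts a blastocyst, in 3 WT and 3 Pbrm1 cKO libraries. Pbrm1 encodes a subunit of the PBAF chromatin remodeling complex. The comparison asks which transcripts differ between stromal cell cultures of Pbrm1 cKO and WT females. The Pbrm1 cKO females carried Pbrm1 fl/fl with PR-IRES-cre/+, in which Cre is made wherever the progesterone receptor gene is active, so the deletion was not restricted to stroma and reached other cells that express this receptor. The labels name the other group WT, whereas the study's methods give Pbrm1 fl/fl animals without Cre for the same preparation, and WT is kept here as its name. All females were 8 to 12 weeks old and pseudopregnant, although the time label reads pregnancy. Each preparation pooled 5 to 10 uterine horns, and the cells were plated, given new medium after 4 hours and taken for RNA 2 hours later. The study calls the libraries of a group biological replicates, and the labels do not say whether each came from a pool of its own. The p-values measure the spread between these libraries.

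Prostaglandins are made from arachidonic acid that cytosolic phospholipase A2 frees from membranes. A cyclooxygenase converts it to prostaglandin H, and terminal synthases turn that into prostaglandin E, prostacyclin or other prostanoids, which leave the cell and act on G protein-coupled receptors of the same or nearby cells. In the mouse uterus this route is known for its part in implantation and in the decidual change of the stroma, and Ptgs2 is the inducible cyclooxygenase that appears around the implanting blastocyst.

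The 6 libraries held 13253575 to 18338667 counts assigned to genes, at which a count of 3, taken as the floor, corresponds to 0.164 to 0.226 CPM. Normalized counts are counts divided by a size factor for each library. Pbrm1 itself had 1354, 1385 and 1677 in WT against 397, 459 and 451 in Pbrm1 cKO (log2 fold change -1.76 ± 0.13 SE, adjusted p = 5.19e-40), in the direction of the labels. The Pbrm1 cKO mean was 29.6% of the WT mean, so Pbrm1 RNA was reduced and not absent. The stromal genes Vim, Col1a1 and Pdgfra were abundant in every library, and markers of other cells were present too. Leukocyte markers were higher in Pbrm1 cKO for 14 of 16 listed genes, with a sum of 4169 to 9762 normalized counts in WT and 34669 to 36622 in Pbrm1 cKO. WT replicate 1 stood apart from the other WT libraries on the second principal component (18.5 against -12.6 and -9.64) and had, among the WT libraries, the lowest sums of leukocyte, epithelial and endothelial markers and the highest of stromal markers. Results of the 10 genes that it moves by over 0.1 on the log2 scale, and those of other named genes whose call it ends, are also given without it, as are values of some genes known from leukocytes.

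Of the 10 genes, 2 were higher and 4 lower in Pbrm1 cKO at an adjusted p under 0.05 (DESeq2), which is 60% called, against 31.1% of the 17471 genes tested. Over all genes 15.9% were higher and 15.2% were lower. The substrate-releasing enzyme Pla2g4a and the cyclooxygenase Ptgs2 fell, the prostacyclin synthase Ptgis and the receptor Ptger2 rose, and the low-count receptors Ptger3 and Ptgfr fell. Ptgs1, Ptges, Ptges2 and Ptger4 did not pass. The 2 groups had separate ranges for 8 of the 10 genes, against 48.6% of all genes tested. Their median log2 fold change was -0.21 and that of all tested genes -0.00060.

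**Figure D1:**
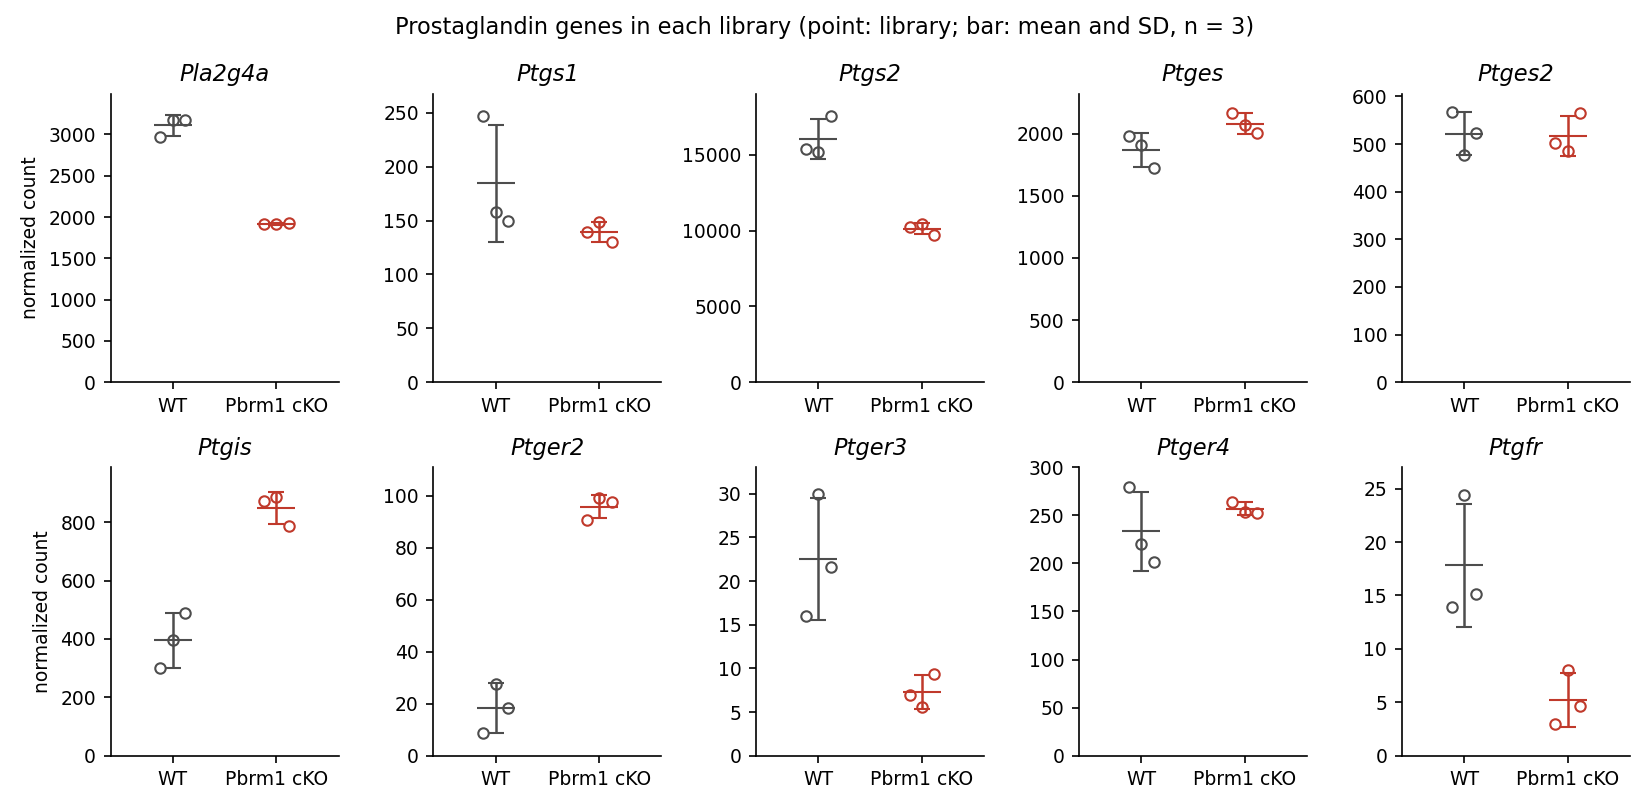
Normalized counts (linear axis from 0, a separate scale for each gene) of the 10 prostaglandin genes in 3 WT and 3 Pbrm1 cKO libraries. Points are libraries, and bars give the mean and SD. Pla2g4a and Ptgs2 are lower in every Pbrm1 cKO library, Ptgis and Ptger2 are higher, and Ptges2 and Ptger4 overlap between the groups.

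Pla2g4a encodes the cytosolic phospholipase A2 that supplies most of the arachidonic acid for prostaglandin synthesis. Its normalized counts were 2968, 3181 and 3180 in WT and 1914, 1910 and 1927 in Pbrm1 cKO. The 3 Pbrm1 cKO libraries lay close together and below every WT library. The mean was 61.7% of the WT mean (log2 fold change -0.70 ± 0.08 SE, adjusted p = 1.50e-15), and the call held under all 14 alternative settings, with values from -0.77 to -0.68.

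Ptgs2 had the highest counts of the 10 genes, at 15373, 15167 and 17570 in WT and 10217, 10456 and 9727 in Pbrm1 cKO. The lowest WT library was above the highest Pbrm1 cKO library by more than the spread within either group. The mean reached 63.2% of the WT mean (log2 fold change -0.66 ± 0.09 SE, adjusted p = 2.32e-11), and it kept its call under all 14 alternatives (-0.70 to -0.60). Normalized counts of Ptgs1 (chr2:36230426-36252272, plus strand), the constitutive cyclooxygenase, were 247, 158 and 149.2 in WT and 139, 148.6 and 130 in Pbrm1 cKO. The groups were separated by less than 1 count between WT replicate 3 and Pbrm1 cKO replicate 2, and the high value of WT replicate 1 carried most of the difference. The log2 fold change was -0.40 (95% interval -0.85 to 0.04, adjusted p = 0.176), or -0.14 without WT replicate 1.

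Ptgs2 and Pla2g4a are neighbours on chromosome 1 (GRCm38). Pla2g4a spans chr1:149829618-149961290 on the minus strand and Ptgs2 spans chr1:150100031-150108227 on the plus strand, with start sites 138.7 kb apart and transcription running away from each other. The 3 annotated genes whose starts lie between them, Gm19136, Gm44329 and Ptgs2os, had at most 17 counts in any library. Of the genes annotated on chromosome 1, 31 start within 1000 kb of the Ptgs2 start, itself included, and 5 had a mean of at least 50 normalized counts. Pla2g4a and Ptgs2 were the 2 of these 5 that passed the test. Rbm3-ps, a pseudogene whose reads may be shared with its parent gene, had a log2 fold change of -0.30 (adjusted p = 0.123), Odr4 had -0.19 (adjusted p = 0.344) and Tpr had 0.10 (adjusted p = 0.483). Ptgs2os2, a transcript annotated on the strand opposite to Ptgs2 and 64.9 kb beyond its start, had 10 to 24 counts and did not pass (adjusted p = 0.271). These neighbours were looked up after the values of Ptgs2 and Pla2g4a were known.

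**Figure D2:**
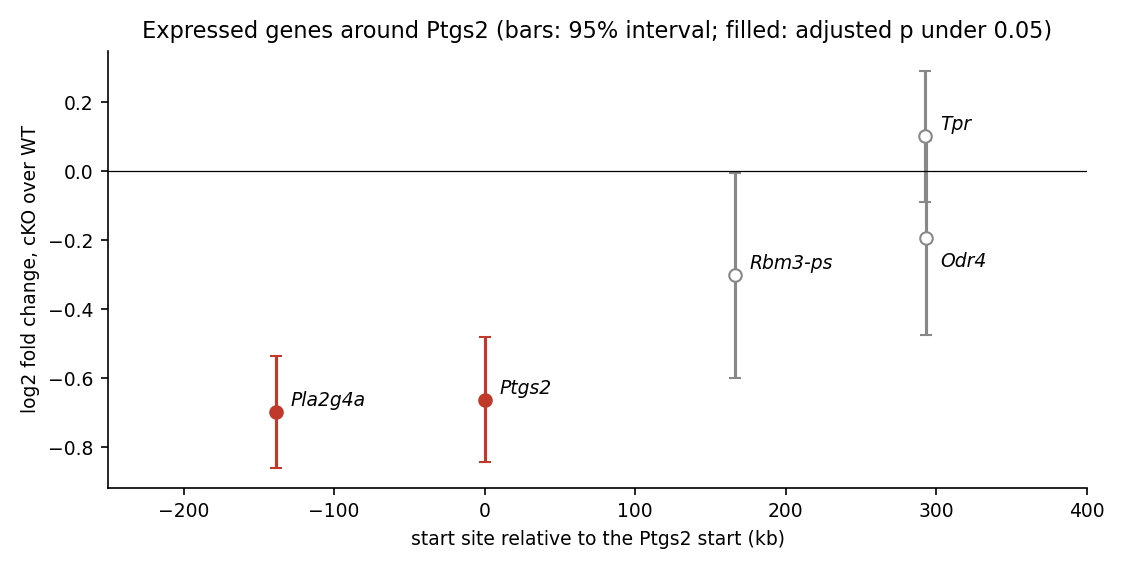
Log2 fold change in Pbrm1 cKO over WT (vertical axis, with 95% intervals) of the 5 genes with a mean of at least 50 normalized counts within 1000 kb of the Ptgs2 start, against the distance of their start sites in kb. Pla2g4a and Ptgs2 sit near -0.7 with intervals below 0, and Rbm3-ps, Odr4 and Tpr lie closer to 0 and did not pass the test.

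The promoters of these neighbours, which fell together, are shown as the 250 bases before the RefSeq start site (table build GRCm38.p6, a patch release of the assembly the counts use), read in the direction of transcription. Capitals mark matches on either strand to 9 motifs. The cyclic AMP response element was searched as TGACGTCA and, in its shorter form, by the letters TGACG, with which the longer form overlaps. A palindrome of the C/EBP factors was searched as TTGCGCAA. The site of AP-1 factors was written with one free base as TGANTCA. The E-box, bound by bHLH factors such as Hand2, was written with 2 free bases as CANNTG. The GC box of Sp factors was searched by the letters GGGCGG. The TATA box, bound by the basal machinery, was searched by the letters TATAAA. A short site shared by the progesterone and glucocorticoid receptors was searched by the letters AGAACA. The NF-kB motif is given by name. The looser C/EBP spelling TTNNGNAA, which also takes in the palindrome, was searched but is not capitalized. The Ptgs2 window is chr1:150099781-150100030 (plus strand) and the Pla2g4a window is chr1:149961291-149961540 (minus strand).
Ptgs2: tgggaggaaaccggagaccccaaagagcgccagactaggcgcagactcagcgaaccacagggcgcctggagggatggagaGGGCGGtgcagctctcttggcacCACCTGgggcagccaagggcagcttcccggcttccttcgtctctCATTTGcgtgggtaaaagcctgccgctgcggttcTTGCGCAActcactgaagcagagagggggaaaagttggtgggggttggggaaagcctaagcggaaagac
Pla2g4a: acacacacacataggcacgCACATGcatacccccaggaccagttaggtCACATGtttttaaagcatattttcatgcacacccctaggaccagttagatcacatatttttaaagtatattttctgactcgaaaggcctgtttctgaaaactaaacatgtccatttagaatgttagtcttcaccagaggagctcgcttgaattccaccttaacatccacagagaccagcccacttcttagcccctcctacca
The Ptgs2 window had TTGCGCAA from 69 to 62 bases before the start, a palindrome that occurs in 0.164% of the 32851 promoter windows of the table, or 54 of them. It also had a GC box, present in 32.7% of all windows, and E-box letters, present in 66.2%. The Pla2g4a window had CACATG at 2 places, which fits the E-box spelling, and none of the other capitalized motifs. Cytosine and guanine made up 61.6% of the Ptgs2 window and 43.2% of that of Pla2g4a, so the pair did not share base composition. TTNNGNAA was found in both windows and in 36.8% of all. A second RefSeq start of Pla2g4a lies further into the gene and is not shown. These matches describe letters in these windows, and binding was not measured by this assay.

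Ptges (chr2:30889471-30929863, minus strand) encodes the inducible membrane-bound prostaglandin E synthase that works with Ptgs2. Its normalized counts were 1984, 1907 and 1720 in WT and 2168, 2067 and 2007 in Pbrm1 cKO. Every Pbrm1 cKO library was above every WT library, but by little (log2 fold change 0.15, 95% interval -0.04 to 0.34, adjusted p = 0.242). Ptges2 (chr2:32395896-32405772, plus strand), a second prostaglandin E synthase, ranged from 476 to 566 normalized counts in WT and from 485 to 565 in Pbrm1 cKO. These ranges overlapped almost fully (log2 fold change -0.01, 95% interval -0.27 to 0.24, adjusted p = 0.952).

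Ptgis (chr2:167191805-167240604, minus strand), the synthase that makes prostacyclin, was the one terminal synthase of the 10 genes that passed the test. It had 301, 396 and 490 normalized counts in WT against 873, 886 and 785 in Pbrm1 cKO. The lowest Pbrm1 cKO library was well above the highest WT library, and WT replicate 1 was the lowest of all. The Pbrm1 cKO mean was 2.14 times the WT mean (log2 fold change 1.10 ± 0.17 SE, adjusted p = 1.82e-09). Leaving out WT replicate 1 gave 0.94 (adjusted p = 3.63e-11), and no alternative ended the call.

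Ptger2 (chr14:44988195-45003820, plus strand) encodes EP2, a prostaglandin E receptor that raises cyclic AMP, and it had the largest fold change of the 10 genes. Raw counts were 8, 25 and 17 in WT and 92, 124 and 104 in Pbrm1 cKO, or 8.55, 27.7 and 18.4 against 90.8, 99.1 and 97.6 after normalization. The 3 Pbrm1 cKO libraries were close together and each exceeded the highest WT library more than 3-fold. The mean rose 5.26-fold (log2 fold change 2.40 ± 0.36 SE, adjusted p = 5.88e-10). With the lowest library, again WT replicate 1, left out, the log2 fold change was 2.06 (adjusted p = 3.16e-08). Ptger4 (chr15:5206661-5244187, minus strand) encodes EP4, the other prostaglandin E receptor coupled to cyclic AMP, and it did not pass. It had 279, 220 and 201 normalized counts in WT against 264, 253 and 252 in Pbrm1 cKO, with WT replicate 1 above all others (log2 fold change 0.14, 95% interval -0.19 to 0.47, adjusted p = 0.606, or 0.29 without that library). Exons of Ptger4 overlap those of Ttc33 on the opposite strand, which had 271 to 361 counts. Reads were counted by strand.

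The promoters of these receptors, which share a second messenger and differed in response, are shown in the same way. The Ptger2 window is chr14:44987861-44988110 (plus strand) and the Ptger4 window is chr15:5244188-5244437 (minus strand).
Ptger2: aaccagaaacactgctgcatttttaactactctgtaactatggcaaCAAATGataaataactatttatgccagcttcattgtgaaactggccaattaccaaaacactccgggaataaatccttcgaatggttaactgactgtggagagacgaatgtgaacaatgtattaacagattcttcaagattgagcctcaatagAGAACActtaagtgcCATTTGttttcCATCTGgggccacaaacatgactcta
Ptger4: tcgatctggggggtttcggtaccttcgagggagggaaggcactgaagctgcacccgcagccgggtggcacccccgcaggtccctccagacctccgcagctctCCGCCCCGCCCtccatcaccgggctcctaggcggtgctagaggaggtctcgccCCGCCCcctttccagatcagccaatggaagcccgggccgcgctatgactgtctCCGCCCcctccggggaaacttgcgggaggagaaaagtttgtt
In the Ptger2 window the receptor site AGAACA stood from 52 to 47 bases before the start, as it does somewhere in 16.1% of all windows. Its E-box letters included CATCTG from 26 to 21 bases before the start, which 14.4% of windows hold. The Ptger4 window held the GC box at 4 places, all on the opposite strand, and no other searched motif. The share of cytosine and guanine was 38.0% for Ptger2 and 66.8% for Ptger4. Over the 10 windows of the 9 genes with a RefSeq entry, 9 had an E-box, 5 a GC box, 4 the receptor site and 1, the Pla2g4a window that is not shown, a TATA box, which 12.4% of all windows hold. Neither form of the cyclic AMP element, the AP-1 site nor the NF-kB motif was found in these windows, against 1.55%, 17.8%, 6.75% and 7.25% of all windows with the long form, the short form, AP-1 and NF-kB. The windows end just before the RefSeq start, and bases beyond it were not searched. Absence of a motif therefore covers these windows alone. Ptgis had no entry in the table.

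Ptger3 and Ptgfr were detected at low counts and were lower in Pbrm1 cKO. Ptger3 (chr3:157566892-157645888, plus strand) encodes EP3, which mostly lowers cyclic AMP, and had 15, 27 and 20 raw counts in WT against 7, 7 and 10 in Pbrm1 cKO. Ptgfr (chr3:151796502-151837630, minus strand) encodes the receptor of prostaglandin F, which signals through calcium, and had 13, 22 and 14 against 3, 10 and 5. In both genes every Pbrm1 cKO library was below every WT library, with Pbrm1 cKO replicate 1 of Ptgfr at the floor of 3 counts. The log2 fold changes were -1.63 ± 0.57 SE for Ptger3 (adjusted p = 0.0155) and -1.75 ± 0.66 SE for Ptgfr (adjusted p = 0.0281). These calls rest on few reads. Without WT replicate 1 the log2 fold changes were -1.83 and -1.90, and both passed (adjusted p = 0.0135 and 0.0343). Ptger3 no longer passed without WT replicate 2 (adjusted p = 0.133), Pbrm1 cKO replicate 1 (0.0684) or Pbrm1 cKO replicate 2 (0.101). Ptgfr no longer passed without WT replicate 2 (adjusted p = 0.187), WT replicate 3 (0.0568), Pbrm1 cKO replicate 1 (0.137) or Pbrm1 cKO replicate 3 (0.0963). The sign of both stayed negative throughout.

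**Figure D3:**
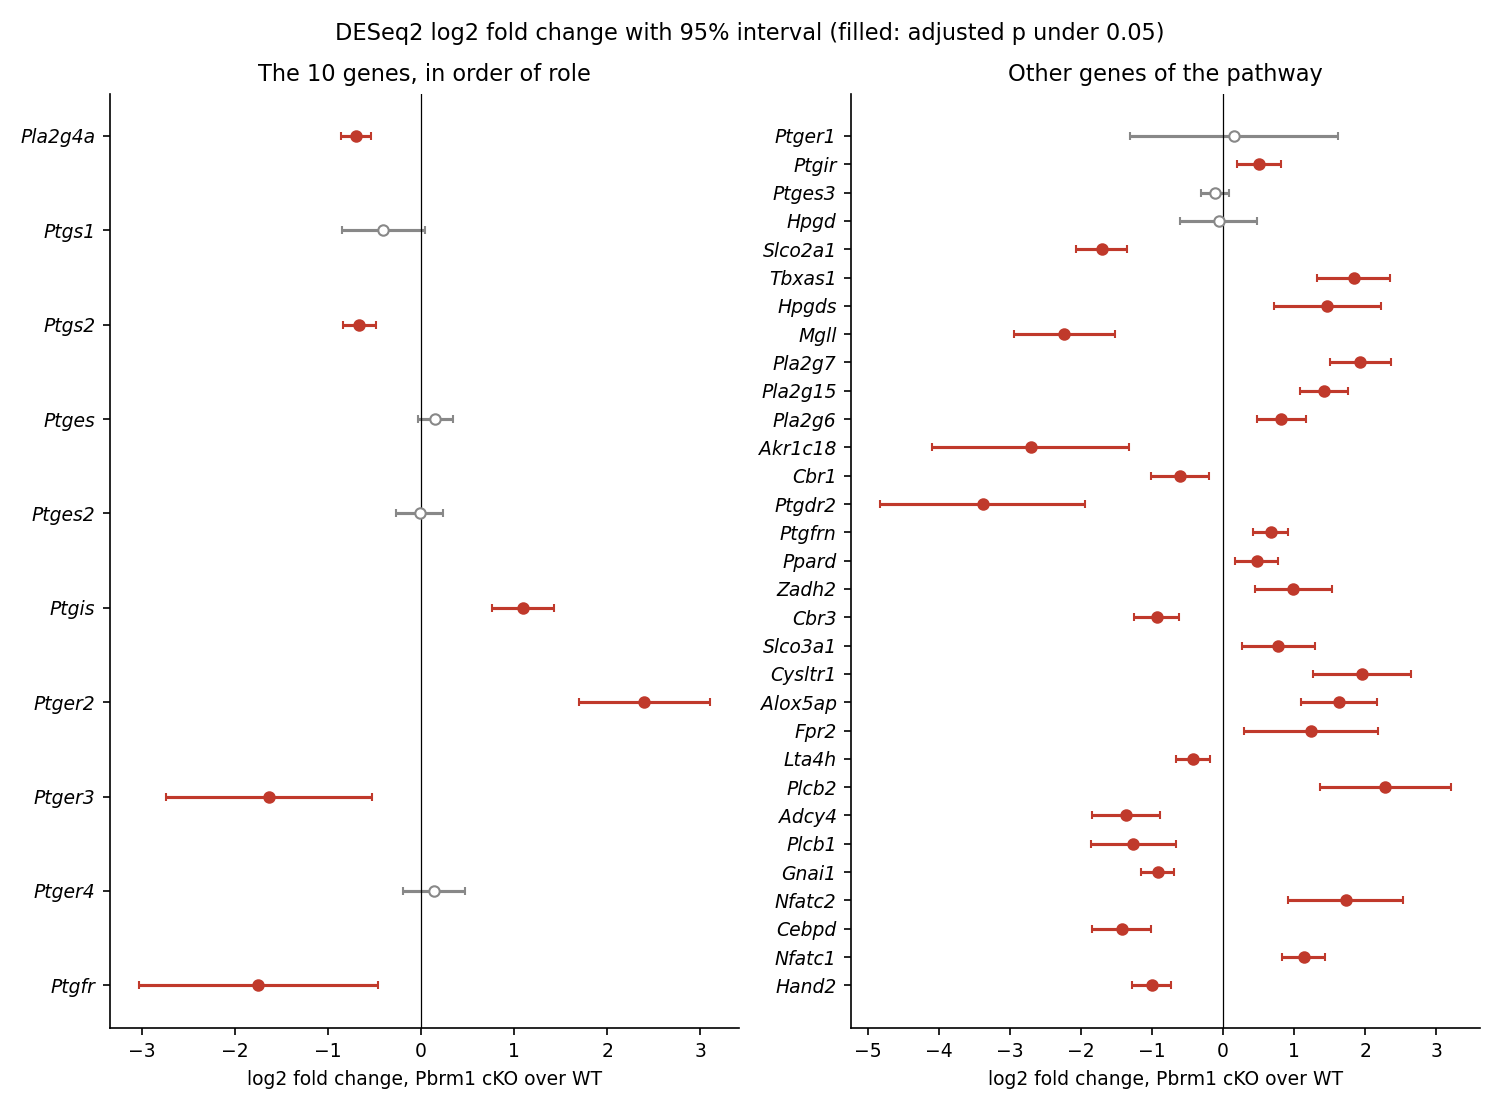
Log2 fold change in Pbrm1 cKO over WT with 95% intervals for the 10 prostaglandin genes in order of role (left) and for other named genes of the pathway (right), with filled points for an adjusted p under 0.05. Ptger2 at 2.40 has the highest value on the left, Ptgdr2 on the right rests on 2 or 3 counts in each Pbrm1 cKO library and has a wide interval (-4.83 to -1.94), and the intervals of Ptger3 and Ptgfr are the widest on the left.

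Levels between genes were compared as RPKM, the count divided by exon length and library total. In WT the order was Ptgs2 (237 ± 19.6 SD), Pla2g4a (33.0 ± 1.40), Ptges (32.2 ± 2.31), Ptgis (10.4 ± 2.50), Ptges2 (6.99 ± 0.58), Ptgs1 (3.22 ± 0.93), Ptger4 (2.38 ± 0.41), Ptger3 (0.269 ± 0.085), Ptger2 (0.238 ± 0.13) and Ptgfr (0.178 ± 0.058). Pla2g4a and Ptges overlapped between libraries, as did Ptgs1 and Ptger4, and the 3 lowest receptors could not be ordered. In Pbrm1 cKO the order was Ptgs2 (152 ± 4.42), Ptges (36.3 ± 1.22), Ptgis (22.7 ± 1.29), Pla2g4a (20.6 ± 0.26), Ptges2 (7.01 ± 0.63), Ptger4 (2.65 ± 0.060), Ptgs1 (2.46 ± 0.14), Ptger2 (1.27 ± 0.062), Ptger3 (0.0881 ± 0.024) and Ptgfr (0.0527 ± 0.026). Here Ptger4 overlapped with Ptgs1 and Ptger3 with Ptgfr. Pla2g4a thus stood above Ptgis in every WT library and below it in every Pbrm1 cKO library, and Ptger2 stood apart from Ptger3 and Ptgfr in Pbrm1 cKO. Ptgs2 supplied 72.7% of the summed level of the 10 genes in WT and 62.0% in Pbrm1 cKO. These levels are those of cells digested out of the uterus and plated, and levels in the tissue were not measured here.

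**Figure D4:**
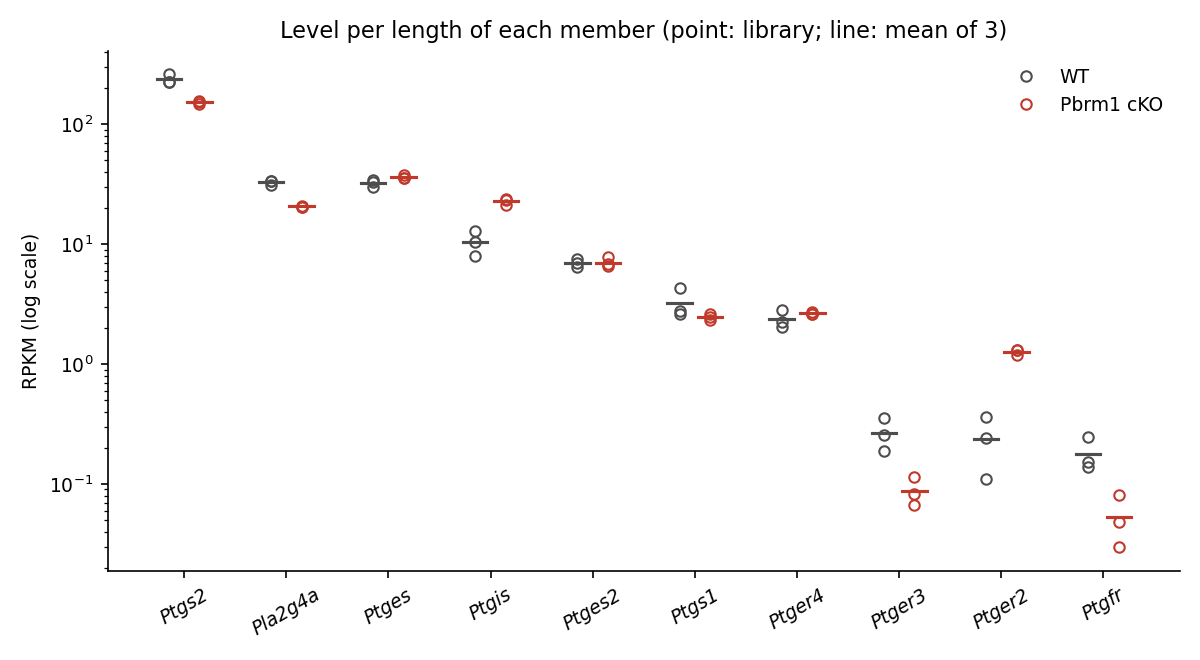
Level per length (RPKM, logarithmic axis) of the 10 prostaglandin genes, ordered by their WT mean. Circles are the 3 libraries of each group and lines the group means. Ptgs2 is the highest in both groups, at 237 in WT and 152 in Pbrm1 cKO, and Ptger2 moves from 0.238 to 1.27.

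Ratios of these levels were taken within each library. The ratio of Ptgs2 to Ptgs1 was 52.8, 81.6 and 99.9 in WT and 62.3, 59.7 and 63.2 in Pbrm1 cKO. The groups overlapped, and an exact two-sided permutation test of the log2 ratio gave p = 0.4, where 0.1 is the smallest p that 3 against 3 libraries can reach. Other ratios were chosen after the values were seen and carry no test. Ptgs2 to Pla2g4a was 7.20 ± 0.53 (SD, n = 3) in WT and 7.38 ± 0.30 in Pbrm1 cKO, so these genes fell by similar factors. The ratio of Ptgis to Ptges was 0.329 ± 0.10 in WT and 0.624 ± 0.029 in Pbrm1 cKO. Ptger2 to Ptger4 went from 0.106 ± 0.062 to 0.478 ± 0.034.

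The other genes of the pathway were taken from role lists of 114 genes, of which 96 could be tested. In Pbrm1 cKO 27 were higher and 19 lower, or 47.9% called, with a median log2 fold change of 0.03. Over all tested genes 31.1% were called, 15.9% higher and 15.2% lower, and the counts by role below stand beside these shares, with few genes in most roles. Among other phospholipases A2 and genes that handle arachidonic acid, 4 of 12 tested were higher and 2 lower. Pla2g7, which hydrolyses platelet-activating factor, had 477, 918 and 1030 normalized counts in WT against 2883, 3163 and 3199 in Pbrm1 cKO (log2 fold change 1.93, adjusted p = 3.24e-17, or 1.66 without WT replicate 1). The lysosomal phospholipase Pla2g15 (1.42) and the calcium-independent Pla2g6 (0.82) rose as well, and the monoacylglycerol lipase Mgll fell by 2.24 on the log2 scale (adjusted p = 1.25e-08).

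Of 7 other prostanoid synthases tested, 2 were higher and 3 lower. Tbxas1, the thromboxane synthase, had 35.3, 79.9 and 53.0 normalized counts in WT against 203, 197 and 198 in Pbrm1 cKO (log2 fold change 1.83, adjusted p = 6.71e-11, or 1.59 without WT replicate 1). Hpgds, which makes prostaglandin D in immune cells, rose as well (1.47, adjusted p = 0.000795, or 1.08 without WT replicate 1). Akr1c18, an enzyme that degrades progesterone and can make prostaglandin F, had 48.1, 252 and 255 in WT and 25.7, 25.6 and 33.8 in Pbrm1 cKO (log2 fold change -2.71, adjusted p = 0.000856), with WT replicate 1 far below the other WT libraries. Without that library its value was -3.17. Cbr1, a carbonyl reductase that acts on prostaglandin E, was lower (-0.61, adjusted p = 0.0163), a call that did not hold without WT replicate 3 (adjusted p = 0.129), Pbrm1 cKO replicate 1 (0.129) or Pbrm1 cKO replicate 3 (0.0516). Ptges3, the cytosolic prostaglandin E synthase and HSP90 cochaperone, did not pass (-0.12, adjusted p = 0.428), and Ptgds was too low to be tested.

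Among 7 other receptors tested, 3 were higher and 1 lower. The prostacyclin receptor Ptgir, which answers the product of Ptgis, had 221, 224 and 185 normalized counts in WT against 321, 304 and 272 in Pbrm1 cKO (log2 fold change 0.51, adjusted p = 0.00604). Its groups did not overlap, but it did not pass without Pbrm1 cKO replicate 1 (adjusted p = 0.0696) or Pbrm1 cKO replicate 2 (0.0587). Ppard, a nuclear receptor with prostacyclin among its proposed ligands, was higher by 0.47 (adjusted p = 0.00939) but did not pass without WT replicate 2 (0.0652), Pbrm1 cKO replicate 1 (0.0752) or Pbrm1 cKO replicate 2 (0.0974). Ptgfrn, which binds and restrains the prostaglandin F receptor, rose by 0.67 (adjusted p = 8.46e-07). Ptgdr2, a prostaglandin D receptor, had raw counts of 15, 34 and 20 in the WT libraries against 3, 3 and 2 in those of Pbrm1 cKO, each at or under the floor of 3 counts. It was called lower (adjusted p = 4.15e-05), but the size of its change is poorly set by so few reads (log2 fold change -3.38, 95% interval -4.83 to -1.94). Ptger1, the EP1 receptor, stayed at 4.93 to 11.2 normalized counts across the 6 libraries and did not pass (adjusted p = 0.915).

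Of the 8 genes for uptake, export and inactivation, all tested, 2 were higher and 2 lower. The prostaglandin importer Slco2a1 had 255, 282 and 283 normalized counts in WT against 76.0, 95.9 and 77.9 in Pbrm1 cKO. Every Pbrm1 cKO library was below every WT library by more than the spread within either group (log2 fold change -1.71 ± 0.18 SE, adjusted p = 3.75e-19). Hpgd, the dehydrogenase that inactivates prostaglandins after import, overlapped between groups (log2 fold change -0.06, adjusted p = 0.905). The carbonyl reductase Cbr3 was lower (-0.94, adjusted p = 9.47e-08). Zadh2, a prostaglandin reductase, and Slco3a1, an organic anion transporter, were called higher (0.99 and 0.77) but neither passed without WT replicate 1 (adjusted p = 0.149 and 0.0676), nor without Pbrm1 cKO replicate 2 (0.186 and 0.0643). Slco3a1 was also lost without Pbrm1 cKO replicate 1 (0.0863) and Pbrm1 cKO replicate 3 (0.0584).

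In the lipoxygenase branch, which uses the same substrate, 3 of 9 tested genes were higher and 1 lower. They were Cysltr1, a cysteinyl leukotriene receptor (log2 fold change 1.95, adjusted p = 4.04e-07), Alox5ap, which presents the substrate to the lipoxygenase (1.63, adjusted p = 2.52e-08), Fpr2, a receptor of lipoxins and formyl peptides (1.24, adjusted p = 0.0340), and the lower Lta4h (-0.43, adjusted p = 0.00263). Without WT replicate 1 Cysltr1 kept its call (adjusted p = 6.24e-06), and Alox5ap had 1.32 (adjusted p = 8.09e-12). Fpr2 was not called without any one of WT replicate 1, WT replicate 2, Pbrm1 cKO replicate 1 or Pbrm1 cKO replicate 3 (adjusted p = 0.0937 to 0.197). Of 35 genes that couple the receptors to cyclic AMP and calcium, 4 were higher and 8 lower, or 34.3% called, close to the 31.1% of all tested genes. Those with the largest changes were Plcb2 (2.28), a phospholipase C of blood cells, and Adcy4 (-1.37), Plcb1 (-1.27) and Gnai1 (-0.92), which code for an adenylyl cyclase, a phospholipase C and an inhibitory G protein subunit.

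Of 18 genes known to act on Ptgs2 transcription or mRNA decay, 9 were higher and 2 lower, beside 15.9% and 15.2% of all tested genes. The list mixes transcription factors, the cytokine receptor Il1r1, which acts upstream of them and was among the higher (0.96), and proteins that bind the mRNA, some of which are known to promote its decay, so its members have no common direction of action on Ptgs2. Cebpd, a C/EBP factor, had 174, 244 and 208 normalized counts in WT against 84.8, 71.9 and 76.0 in Pbrm1 cKO (log2 fold change -1.43, adjusted p = 1.75e-10). Hand2, a stromal bHLH factor induced by progesterone, had 965, 745 and 760 against 420, 427 and 384 (49.9% of the WT mean, adjusted p = 1.95e-11). Nfatc2 (1.72) and Nfatc1 (1.13) had the largest increases of the list.

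Several of the genes that rose are known from leukocytes, and the marker values of each library are given beside them. The leukocyte list was led by Lyz2, with 1896, 4837 and 5112 normalized counts in WT against 17551, 18360 and 20340 in Pbrm1 cKO, and also held Csf1r (log2 fold change 2.59) and Cd68 (2.28), while its T cell gene Cd3e had at most 11 counts. Epithelial markers were higher for 6 of 17 tested, with sums of 2052 to 3810 in WT and 4213 to 4389 in Pbrm1 cKO. Endothelial markers were higher for 1 and lower for 4 of 12, with sums of 1928, 5490 and 4801 in WT and 1886 to 2074 in Pbrm1 cKO. Stromal markers were higher for 1 and lower for 7 of 14, with sums of 113227 to 130594 in WT and 87598 to 94118 in Pbrm1 cKO, and smooth muscle markers were lower for 4 of 9. Of 7 mast cell markers, Kit (adjusted p = 0.601), Tpsb2 (0.470) and Cma1 (0.877) could be tested and did not pass, Fcer1a was at 0 in every library, and the sums were 7.48 to 92.1 in WT and 84.4 to 105 in Pbrm1 cKO.

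WT replicate 1 had the lowest leukocyte sum (4169) and also the lowest Ptger2, Ptgis, Tbxas1, Hpgds, Pla2g7 and Cysltr1. WT replicates 2 and 3, with sums of 9762 and 9427, lay between it and the Pbrm1 cKO libraries in these genes. Of the other named genes that rose, Alox5ap, Fpr2, Plcb2, Zadh2, Slco3a1 and Il1r1 also had their lowest value in WT replicate 1. Others did not have this order. They were Pla2g15 (198, 198 and 296 normalized counts in WT), Pla2g6 (131, 125 and 148), Ptgir (221, 224 and 185), Ptgfrn (433, 363 and 417), Ppard (374, 299 and 283), Nfatc1 (255, 232 and 195) and Nfatc2 (16.0, 13.3 and 10.8). WT replicate 1 also had the lowest epithelial and endothelial sums of the WT libraries. Among genes that fell, it had the lowest WT values of Akr1c18 (48.1, against 252 and 255) and Mgll (65.2, against 163 and 143). Whether the shares of cell types account for any of these differences was not tested, and in cultures measured in bulk fewer cells of a type and less RNA per cell cannot be told apart.

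**Figure D5:**
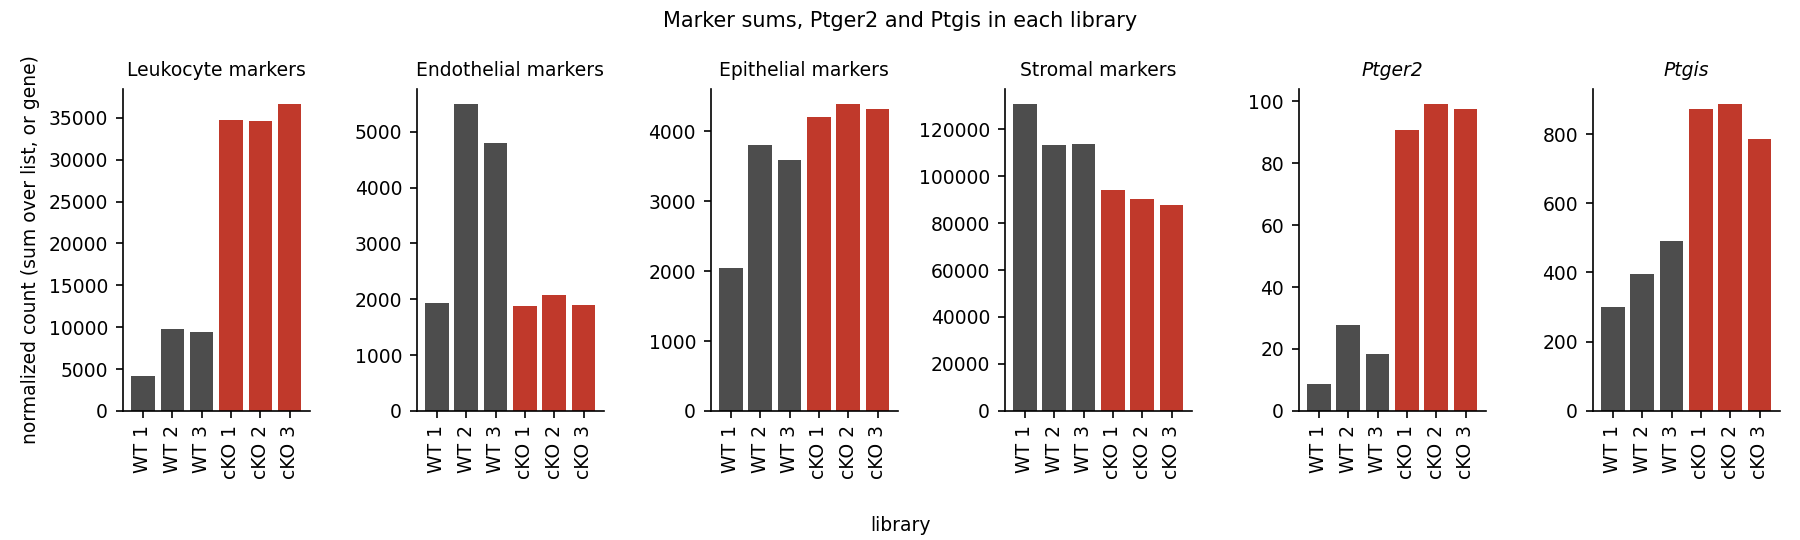
Summed normalized counts of the leukocyte, endothelial, epithelial and stromal marker lists and normalized counts of Ptger2 and Ptgis (linear axes from 0) in each library, WT in grey and Pbrm1 cKO in red. WT replicate 1 has the lowest leukocyte, epithelial, Ptger2 and Ptgis values of the 6 libraries, and the Pbrm1 cKO libraries have the highest leukocyte sums, from 34669 to 36622.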

How the data were processed

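RNA-Seq was compared between 3 WT and 3 Pbrm1 cKO libraries of uterine stromal cells. The authors deposited raw counts per gene, without normalization, made by trimming with cutadapt, alignment with HISAT2 to GRCm38 and strand-specific counting with featureCounts 1.6.4 on GENCODE annotation, each library separately. Reads that map to several places or genes were left out under the counter's default settings, which can lower genes with near-identical copies. The labels describe a TECAN kit that primes on all RNA and depletes some transcripts and the published methods name mRNA beads and TruSeq, and which applies was not settled. Symbols were assigned to 54079 of the 54232 gene identifiers (99.7%).

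Counts were tested with DESeq2 1.42.0 (R 4.3.3, size factors, Wald test, independent filtering, Benjamini-Hochberg over all genes, threshold 0.05), checked on simulated data. Counts divided by DESeq2 size factors are called normalized counts, and levels were computed as RPKM from the same counts. Intervals are 95% Wald intervals. Promoter windows came from a RefSeq table.

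The 10 genes, the pathway lists and the marker lists were chosen with earlier results of these data known. Besides the 10 genes and Pbrm1, the text names from each pathway list up to 4 called genes with the largest changes and a mean of at least 10 normalized counts, and Ptger1, Ptgir, Ptges3, Hpgd, Slco2a1, Ptgds, Tbxas1 and Hpgds in any case. From each marker list it names up to 3 genes with the highest counts. Cd3e and Fcer1a were added after their values were seen, and Il1r1 of a pathway list was named outside these rules. Alternatives were edgeR 4.0.16, limma 3.58.1, other scaling and filters, a length correction, the study's thresholds on fold and p, a replicate block and each library left out. No pair of libraries agreed within sampling noise: over genes, the median chi-square between libraries of a group was 1.63 to 11.3 times its value under counting error alone.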

Additional observations from a re-analysis of the deposited data

How the results depend on the processing

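The calls of Pla2g4a, Ptgs2, Ptgis and Ptger2, and the absence of a call for Ptgs1, Ptges, Ptges2 and Ptger4, were the same under all 14 alternatives. The number of the 10 genes called lower ranged from 2 to 4 when each library was left out, with 2 without WT replicate 2 and 2 without Pbrm1 cKO replicate 1, and the number called higher was 2 in each case. Labels give both groups replicate numbers 1 to 3, but same-numbered libraries did not deviate together (correlations 0.04, -0.04 and -0.00093), so the numbers were not taken as pairs. With a replicate block, 2 of the 10 genes were called lower, since Ptger3 (adjusted p = 0.0987) and Ptgfr (0.0996) no longer passed, 2 were called higher, and over all genes 2174 were higher and 1838 lower, against 2774 and 2658 without it. Slco3a1 (adjusted p = 0.0618) and Fpr2 (0.0757) were also lost with the block, and Fpr2 without independent filtering (0.0555). The thresholds that the study states, a fold above 1.5, an unadjusted p under 0.01 and an adjusted p under 0.1 together, when applied to the present fit left 1665 genes higher and 1452 lower, and dropped Ptgir, Ppard and Lta4h. Leaving out each library gave 1924 to 2926 genes higher and 1801 to 2659 lower. On the TPM scale the median gene shifted by 0.21 (log2), so the 10 genes moved by 0.20, with -0.50 for Pla2g4a and -0.46 for Ptgs2, and those of the 10 that passed the test kept their direction. The cause was not tested. Depth limits Ptger3 and Ptgfr, which had few reads in Pbrm1 cKO, and Ptgdr2, which was at or under the floor of 3 counts in each Pbrm1 cKO library.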
